A study of Homo sapiens with 3 samples.

Results

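Annexins and S100 proteins are 2 large families of calcium-binding proteins, described here in H9, BG03 and ES01, which are lines of undifferentiated human embryonic stem (ES) cells. Members were taken by gene symbol: ANXA plus digits for annexins, and S100A plus digits, S100B, S100G, S100P or S100Z for the S100 family. This gave 29 genes read by 32 probes, 10 annexin genes (12 probes) and 19 S100 genes (20 probes), of 16225 named genes (18468 named probes) on the array. Members were chosen by symbol, with no threshold on values. The families themselves were proposed with the intensities of these 3 arrays in view, when ANXA1 and S100A6 were known to differ between lines, so levels and differences are given as descriptions. ANXA6 and ANXA8 are not analysed here. Total RNA of each line, extracted with TRIzol, was labelled with Cy3 and hybridised to 1 Illumina whole-genome bead array. All 3 lines were grown on irradiated mouse embryonic fibroblast feeders in medium with serum replacement and FGF2, with no other treatment given in the labels. They form 1 group, named here by line (replicate 1 is H9, replicate 2 is BG03 and replicate 3 is ES01). Per its design text, the study's question was how human ES cells compare with mouse ES cells and EpiSCs, cells that are not analysed here.

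Annexins bind phospholipid membranes in a calcium-dependent way through a conserved core of repeats, and take part in membrane repair, vesicle traffic and the linking of membrane to actin. S100 proteins are small EF-hand proteins, mostly dimers, that change shape on binding calcium and then dock onto target proteins; some are also secreted. The families meet in complexes, of which ANXA2 with S100A10 is the best known. Most S100 genes lie in a cluster on chromosome 1 beside the epidermal differentiation genes, and S100A8, S100A9 and S100A12 are best known from myeloid cells.

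A gene was called above background on an array when its quantile-normalized intensity exceeded the 95th percentile of 215 olfactory receptor probes, 11.2 units for H9, 12.6 for BG03 and 13.3 for ES01. Values below that threshold were set to it before log2 was taken. Each line has a single array, so differences between lines have no test and are described by size, and counts use differences of at least 2-fold. An SD over the 3 lines holds line, culture and array together. Each array held 2089034 to 2102778 beads, with a median of 42 beads per type. The median standard error over beads was 2.46% to 2.52% of the signal for bead types at 1000 to 5000 units over background, 3.22% to 3.29% at 200 to 1000, 5.80% to 5.93% at 50 to 200 and 11.9% to 12.1% at 20 to 50. For these bins, background is the lower quartile of bead-type means on an array and not the olfactory threshold. The bins are in units of single-bead intensity that were not tied to the normalized units of members, so they give no error for a member. That error covers bead scatter on an array and not differences between cultures, which have no replicate. The pluripotent identity in the labels was checked with 7 markers matched by symbol, among them POU5F1, NANOG and LIN28A. All 7 were above background in every line. TDGF1 was listed too but not matched, because it stands here under its current symbol CRIPTO (mean log2 intensity 13.07).

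The families differed in how many members were detected. Of the 10 annexin genes, 8 were above background in all 3 lines and 2, ANXA10 and ANXA13, in none. Of the 19 S100 genes, 8 were above it in all 3 lines and 11 in none. No member was above background in only some lines. Over all named genes, 59.8% were above background in all 3 lines, so that the annexins (80.0%) lay over that share and the S100 genes (42.1%) under it. Of the 16 detected members, ANXA7, ANXA11 and S100A4 had 2 probes and the others 1. Whether each probe reads its transcript was not checked, so a gene not above background is not shown to be absent.

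**Figure D1:**
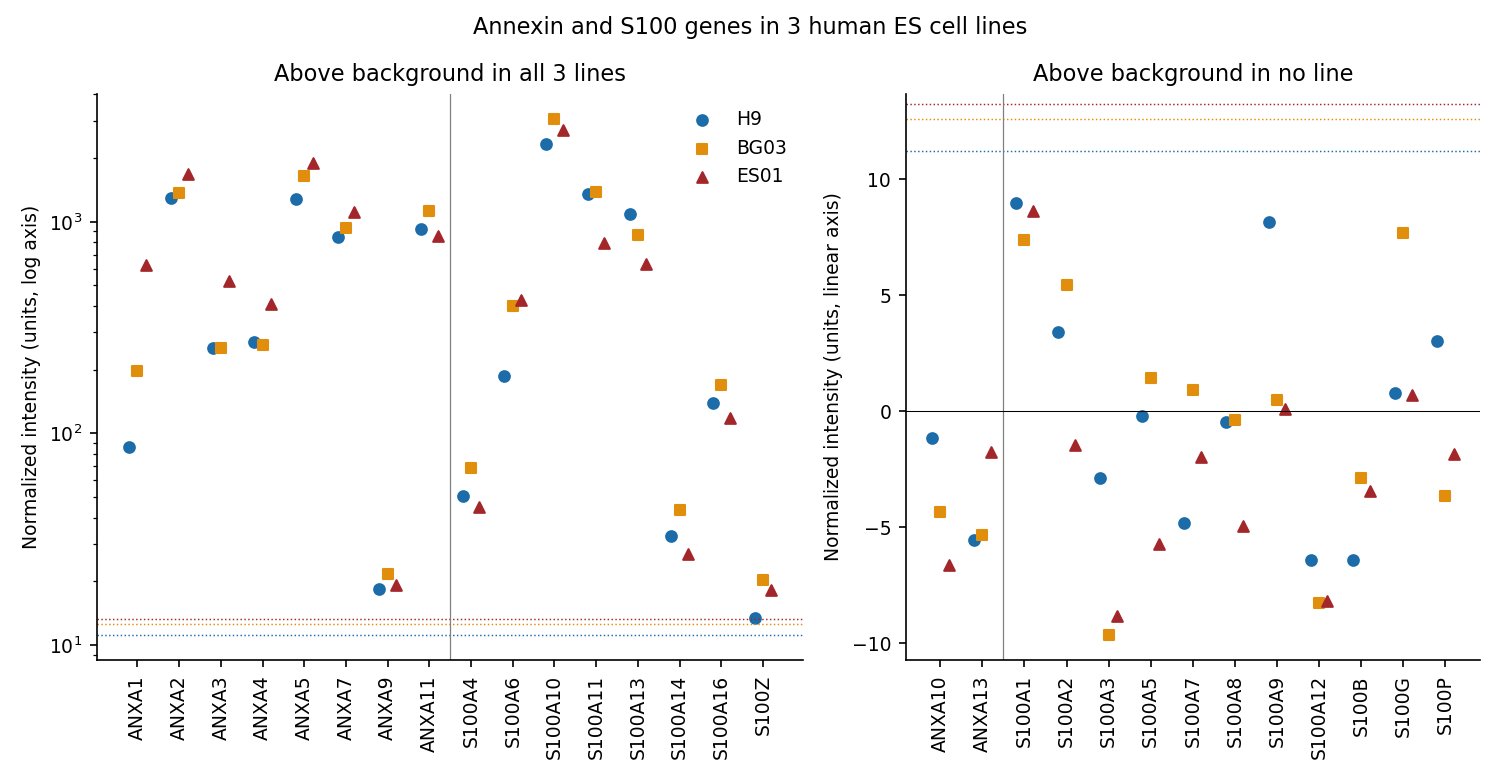
Normalized intensity of each member in H9 (circles), BG03 (squares) and ES01 (triangles), 1 array per line; the left panel (log axis) holds the 16 members above background in all 3 lines and the right panel (linear axis) the 13 above it in none, with annexins left of the grey line. Dotted lines are the background thresholds of the 3 arrays (11.2, 12.6 and 13.3 units). ANXA1 spans from 86.1 to 626 units, and the highest value among undetected members is 8.97 units. Probes differ in how strongly they bind, so heights compare lines within a gene and not genes with each other.

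Detected and undetected members also differed in the letters of their promoters. RefSeq windows of 250 bases before to 50 bases after the transcription start (build GRCh38.p14) were found for 27 of the 29 members; ANXA13 and S100B have none. For 5 members the 250 bases before the start are given 5′ to 3′ on the gene's strand, with each CpG dinucleotide in capitals. They are those of the 3 members that differed at least 2-fold between lines (ANXA1, ANXA3 and S100A6), of S100A10 as the partner of ANXA2, and of S100A9 as an undetected member.
ANXA1: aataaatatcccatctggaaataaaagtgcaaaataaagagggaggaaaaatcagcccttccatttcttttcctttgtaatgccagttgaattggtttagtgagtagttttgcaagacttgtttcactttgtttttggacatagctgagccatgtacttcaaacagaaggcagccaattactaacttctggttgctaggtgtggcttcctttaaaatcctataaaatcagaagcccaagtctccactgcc
ANXA3: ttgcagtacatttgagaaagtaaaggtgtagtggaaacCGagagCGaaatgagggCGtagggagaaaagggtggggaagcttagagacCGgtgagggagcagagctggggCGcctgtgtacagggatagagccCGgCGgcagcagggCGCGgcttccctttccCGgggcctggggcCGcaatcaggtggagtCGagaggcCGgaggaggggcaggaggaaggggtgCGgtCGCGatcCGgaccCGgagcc
S100A6: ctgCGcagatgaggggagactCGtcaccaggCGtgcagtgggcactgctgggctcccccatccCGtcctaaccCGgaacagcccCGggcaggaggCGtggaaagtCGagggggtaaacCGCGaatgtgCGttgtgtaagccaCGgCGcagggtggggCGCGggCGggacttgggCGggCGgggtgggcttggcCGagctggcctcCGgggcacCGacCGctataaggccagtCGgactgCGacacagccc
S100A10: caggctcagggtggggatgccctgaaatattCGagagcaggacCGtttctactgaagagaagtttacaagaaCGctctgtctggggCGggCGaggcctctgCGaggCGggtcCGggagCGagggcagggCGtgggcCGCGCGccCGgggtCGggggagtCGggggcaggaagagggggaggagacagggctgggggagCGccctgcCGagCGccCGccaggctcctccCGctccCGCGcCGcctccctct
S100A9: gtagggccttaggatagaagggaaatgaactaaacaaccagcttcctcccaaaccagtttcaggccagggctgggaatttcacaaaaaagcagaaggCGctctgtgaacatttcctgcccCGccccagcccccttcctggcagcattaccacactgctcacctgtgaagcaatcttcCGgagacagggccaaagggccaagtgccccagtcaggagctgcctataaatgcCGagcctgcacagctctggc
The stretches are chr9:73151615-73151864 (plus strand) for ANXA1, chr4:78551520-78551769 (plus) for ANXA3, chr1:153535992-153536241 (minus) for S100A6, chr1:151993860-151994109 (minus) for S100A10 and chr1:153357604-153357853 (plus) for S100A9. All lie upstream of the annotated start. ANXA1 has 0 CpG in its stretch and S100A9 has 4, against 18 for ANXA3 and 24 each for S100A6 and S100A10. The letters TATAAA start at position -31 of ANXA1 and -29 of S100A9, counted from the transcription start, and are in none of the other 3 stretches.

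Over the full windows of 300 bases, every one of the 10 members with at least 10 CpG was above background in all 3 lines. They are ANXA2, ANXA3, ANXA4, ANXA5, ANXA7, ANXA11, S100A6, S100A10, S100A11 and S100A13. The 11 undetected members with a window held 0 to 6 CpG, with a median of 5. The 16 detected members held 0 to 44, with a median of 20.5, so the groups overlap at the low end. Detected with fewer than 10 were ANXA1 (0), S100A16 (3), S100Z (4), ANXA9 (5), S100A14 (5) and S100A4 (8). For comparison, 56.0% of 27305 promoters in the reference table held at least 10 CpG, as did 89.8% of 8102 genes on the array above background in all lines, against 10 of 16 (62.5%) detected members. A window was found for 83.6% of those genes; for genes above background in no line it was 77.1%, under the minimum of 80% set for such a comparison, so the share among undetected genes is void here. The contrast between detected and undetected members is therefore not set against that among other genes and is not shown to be a trait of these families. With the start richest in CpG taken for the 7 members with more than 1 start, the counts stayed at 10 of 16 detected and 0 of 11 undetected. These are descriptions of letters in a window, with no test.

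**Figure D2:**
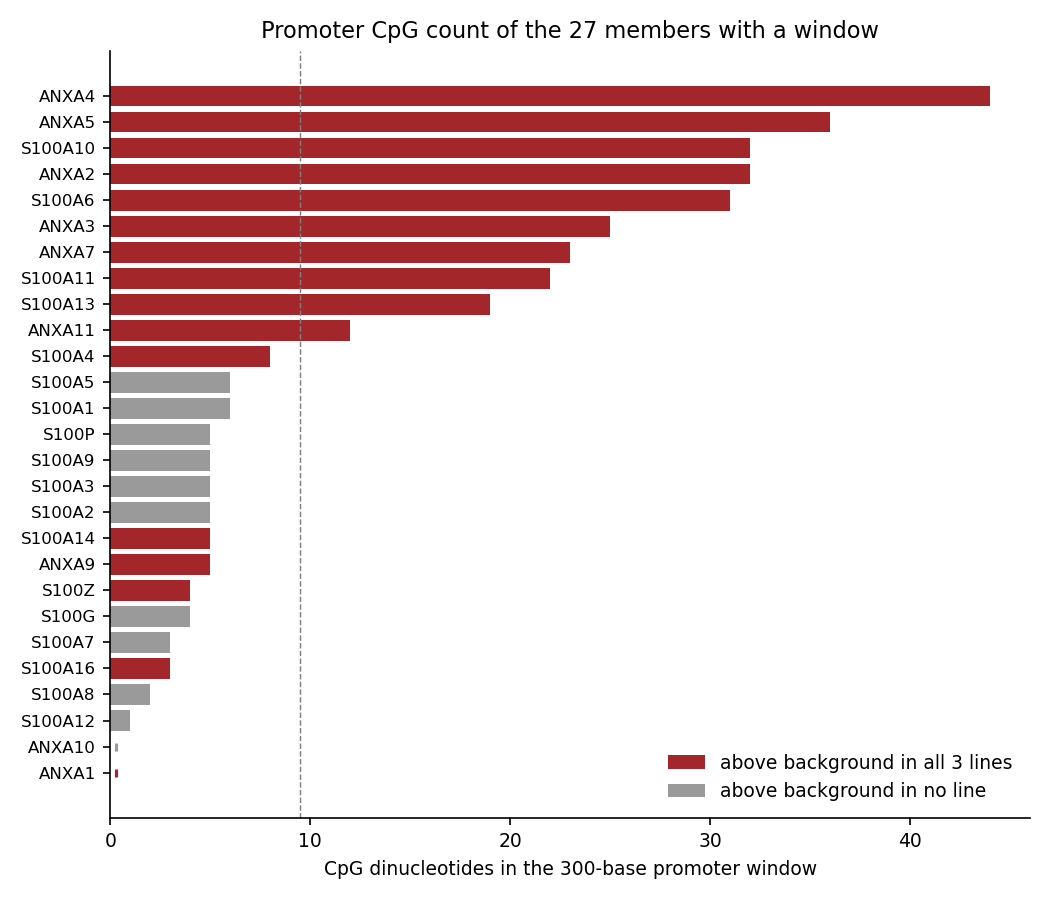
Number of CpG dinucleotides (bar length) in the 300-base promoter window of each of the 27 members with a window, red for genes above background in all 3 lines and grey for genes above it in none. The dashed line separates windows with at least 10 CpG, which are all red; ANXA1 and ANXA10 have 0, drawn as a tick.

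Searched on both strands, TATAAA was in the window of 5 of the 16 detected members (ANXA1, ANXA2, ANXA11, S100A4 and S100Z) and 6 of the 11 undetected ones (ANXA10, S100A7, S100A9, S100A12, S100G and S100P). It is in 12.0% of all promoters in the table and in 5.62% of those of genes above background in all lines. GGGCGG, a GC box, was in 8 of 16 and 2 of 11, against 44.6% of all promoters and 70.9% of those of genes above background in all lines, so the detected members lay under the latter share. TGANTCA, the core of AP-1 sites, was in 1 of 16 (ANXA2) and in 3 of 11 (S100A2, S100A3 and S100A12), against 7.76% and 4.18%. These counts use the first listed start of each gene. With the start richest in CpG, TATAAA was in 4 and GGGCGG in 10 of the 16 detected members. The shares of genes above background in all lines were then 4.76% and 75.7%. The other member counts stayed the same. S100A8 and S100A13 hold TATAAA, and S100A5 holds TGANTCA, at starts not counted here. Matches of different motifs cannot overlap, and a match is no sign of binding.

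Differences between lines were at least 2-fold for 3 members, ANXA1, ANXA3 and S100A6. That is 3 of the 16 detected members, beside 8.29% of 11004 genes above background in at least 1 line. By pair, ANXA1 and S100A6 differed at least 2-fold between H9 and BG03, as did 3.24% of all genes. All 3 did so for H9 against ES01 (5.14% of all genes), and ANXA1 and ANXA3 for BG03 against ES01 (3.75%). Since intensities were in view when the families were proposed, nothing is read from the counts. The median ratio of the highest to the lowest line was 1.39 for the 8 detected annexins and 1.57 for the 8 detected S100 genes, beside 1.28 for all genes above background.

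ANXA1, which inhibits cytosolic phospholipase A2 and signals through formyl peptide receptors, had intensities of 86.1 in H9, 198 in BG03 and 626 in ES01 (log2 SD 1.44, n = 3). H9 was the lowest and ES01 the highest, with a ratio of 7.27 between them. ES01 was 3.16-fold over BG03, and BG03 was 2.30-fold over H9. Of all genes above background in a line, 99.7% had a smaller range over the 3 lines. Its promoter stretch above is the one without CpG.

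ANXA3, an annexin of granulocytes and of endothelial and epithelial cells, measured 254 in H9, 252 in BG03 and 528 in ES01 (log2 SD 0.61). BG03 minus H9 was -0.01 on the log2 scale, a sign that turned with values as deposited and with arrays scaled to the same median, and ES01 stood 2.08-fold over H9 and 2.09-fold over BG03. ANXA4, which binds membranes of epithelial cells, had the same order at a smaller size, with 271, 261 and 409 (log2 SD 0.36). Its ES01 value was 1.51-fold over H9 and 1.57-fold over BG03.

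S100A6, or calcyclin, a protein of proliferating cells and fibroblasts that also binds annexins, measured 186 in H9, 399 in BG03 and 428 in ES01 (log2 SD 0.67). H9 stood apart below the other two lines. BG03 was 2.15-fold and ES01 2.30-fold over H9, while ES01 and BG03 differed by 0.10 on the log2 scale. H9 therefore held the lowest value for both ANXA1 and S100A6, but BG03 lay near ES01 for S100A6 and between the other two lines for ANXA1.

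**Figure D3:**
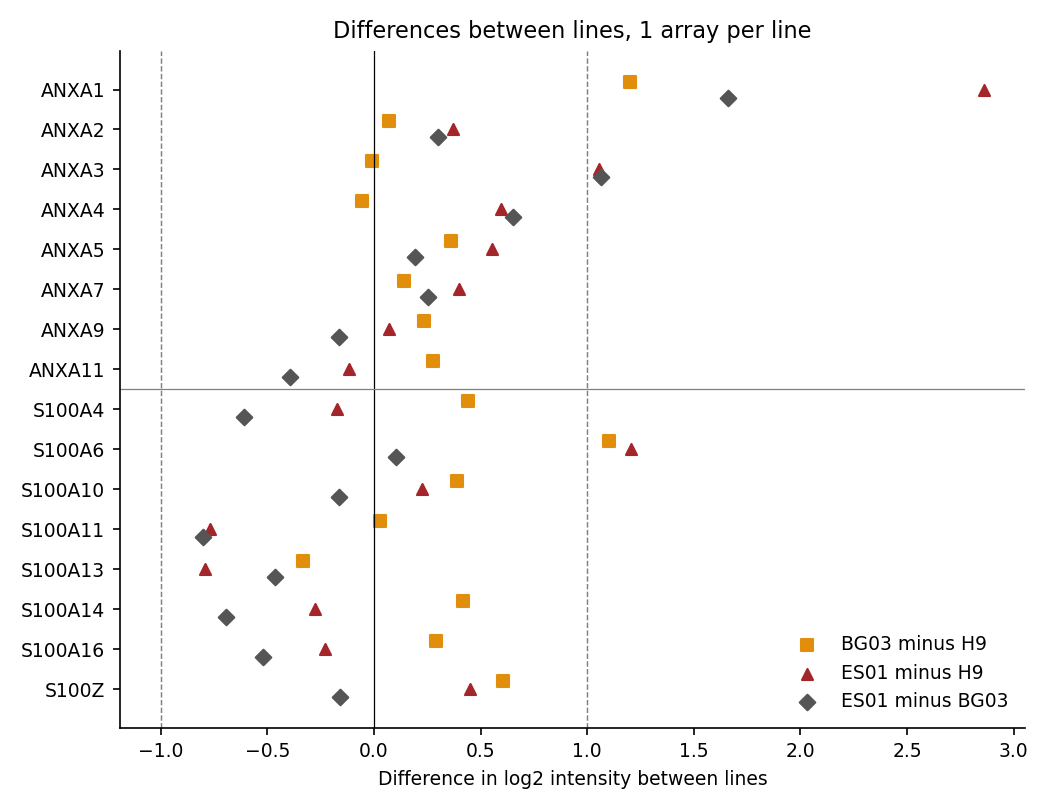
Differences in log2 intensity between lines for the 16 members above background, with annexins above the grey line and S100 genes below it; squares are BG03 minus H9, triangles ES01 minus H9 and diamonds ES01 minus BG03. Dashed lines mark 2-fold. ANXA1 reaches 2.86 for ES01 minus H9, and most S100 diamonds lie left of 0.

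The other widely expressed annexins differed less. ANXA2, the membrane and actin linker that pairs with S100A10, measured 1295 in H9, 1362 in BG03 and 1677 in ES01 (log2 SD 0.20). ANXA5, known for binding phosphatidylserine, measured 1285, 1649 and 1886 (log2 SD 0.28), with ES01 1.47-fold over H9. ANXA7, a GTP-regulated membrane fusion protein, measured 845, 933 and 1114 (log2 SD 0.20). In these 3 genes H9 was lowest and ES01 highest, by 1.30-fold, 1.47-fold and 1.32-fold.

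ANXA11, an annexin with a long flexible N-terminal region that tethers RNA granules to lysosomes, was highest in BG03 (929, 1124 and 856 in H9, BG03 and ES01, log2 SD 0.20). ANXA9, an annexin with altered calcium-binding sites, was dim at 18.4, 21.6 and 19.3 (log2 SD 0.12). Its values passed the 95th percentile of the olfactory probes but not the 99th (25.2, 30.8 and 21.4). ANXA10, an annexin of the stomach lining, and ANXA13, of the intestine, had values of at most -1.17 and -1.77 units.

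S100A10, the S100 protein that has lost calcium-dependent activation and stays bound to ANXA2, measured 2331 in H9, 3049 in BG03 and 2724 in ES01 (log2 SD 0.19). BG03 was its highest line, by 1.31-fold over H9. The pair thus did not have the same order of lines: ANXA2 was highest in ES01 and S100A10 in BG03. Both differences were small, and neither has a replicate to set it against. S100A11, a partner of ANXA1, measured 1351, 1379 and 792 (log2 SD 0.45). Here ES01 was the lowest line, 1.71-fold under H9 and 1.74-fold under BG03, whereas ANXA1 was highest in ES01.

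S100A13, which takes part in the unconventional export of FGF1, measured 1091 in H9, 868 in BG03 and 629 in ES01 (log2 SD 0.40). It was the one detected S100 gene with its highest value in H9, 1.73-fold over ES01. S100A16 (139, 170.0 and 119, log2 SD 0.26), S100A14 (32.7, 43.7 and 27.0, log2 SD 0.35) and S100A4 (50.8, 68.9 and 45.1, log2 SD 0.32) shared another order, with BG03 highest and ES01 lowest. S100A4, or metastasin, binds non-muscle myosin and marks motile and fibroblast-like cells. For these 3 genes the ratio of BG03 to ES01 was 1.43, 1.62 and 1.53.

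S100Z was the member closest to the background, at 13.4, 20.4 and 18.3 units against thresholds of 11.2, 12.6 and 13.3, and it was under the 99th percentile in every line. The nearest undetected members were S100A1, a calcium sensor of heart muscle, at 8.97, 7.37 and 8.63, and S100A9, at 8.17 in H9. S100A9 was at 0.5 in BG03 and 0.1 in ES01. Its partner S100A8 was at -0.47, -0.4 and -4.93, and S100A12 at -6.43, -8.27 and -8.2. The undetected S100 genes also held S100B, of glia and fat cells, S100G, the calbindin of intestine and placenta, the epidermal S100A7 and S100A2, and S100A3, S100A5 and S100P. None of these 7 exceeded 7.7 units in any line.

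As groups, annexins and S100 genes differed in where ES01 stood, while most detected members of both were higher in BG03 than in H9. ES01 was the highest line for 6 of the 8 detected annexins, beside 36% of all genes above background. BG03 was the highest line for 6 of the 8 detected S100 genes, beside 31.9%, and ES01 the lowest for 5 of 8, beside 35%. Between ES01 and BG03 the median log2 difference was 0.28 for annexins (6 of 8 higher in ES01) and -0.49 for S100 genes (1 of 8 higher), beside -0.01 and 49.1% higher for all genes. Between ES01 and H9 the medians were 0.48 (7 of 8 higher) and -0.20 (3 of 8), beside 0.01 and 51.8%. Between BG03 and H9 they were 0.19 (6 of 8) and 0.40 (7 of 8), beside 0.03 and 53.7%. In the all-gene shares, a value under background was set to its array's threshold, lowest for H9 and highest for ES01. NCALD, detected in H9 alone (12.4, 2.93 and 8.87 in H9, BG03 and ES01), thus counts as higher in ES01 than in H9. Those shares include 1309 genes detected in only some lines, while no member is such a gene, so shares and member counts are not fully alike. With a floor of 50 units, under which dim genes have no order, the S100 medians were -0.31 between ES01 and BG03, -0.01 between ES01 and H9 and 0.16 between BG03 and H9, and the annexin median between BG03 and H9 was 0.11. Pairs share arrays and every pair rests on 1 array a line, so these counts describe 3 arrays. With values as deposited the same signs held for both ES01 pairs, while ANXA3 and ANXA4 turned from just below to just above H9 in BG03, making 8 of 8 annexins higher there.

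**Figure D4:**
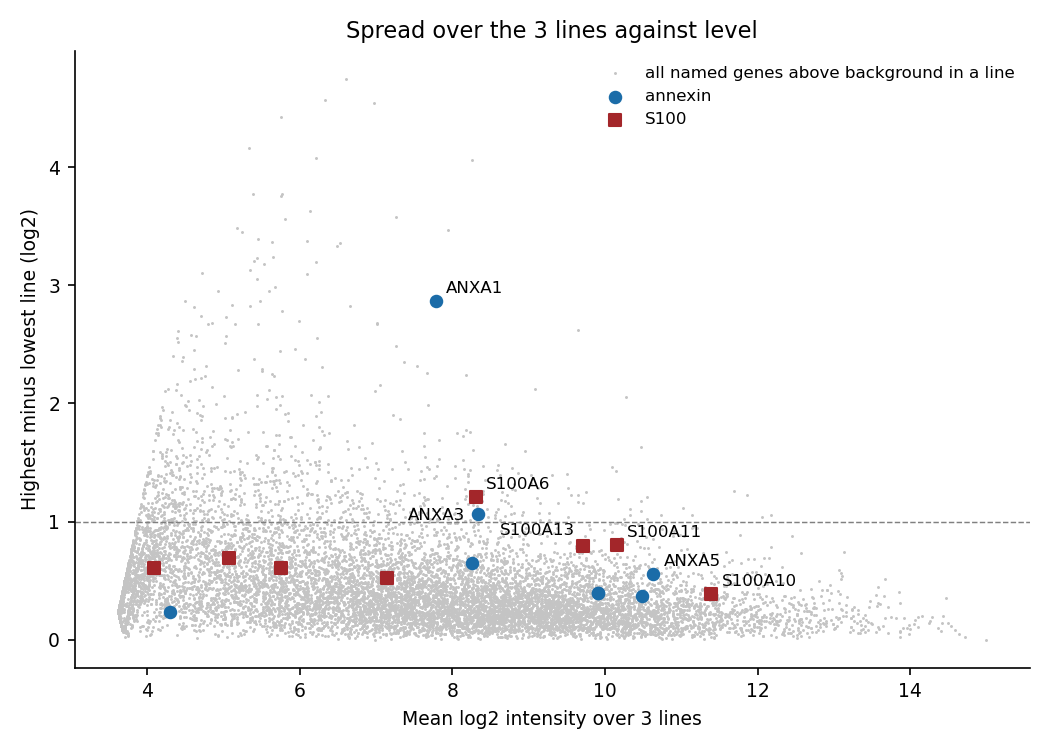
Range over the 3 lines (highest minus lowest log2 intensity) against mean log2 intensity for 11004 genes above background in at least 1 line (grey points), with annexins as blue circles and S100 genes as red squares. The dashed line marks 2-fold. ANXA1, S100A6 and ANXA3 lie above it, at 2.86, 1.20 and 1.07; the other 13 detected members lie below it.

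Where a gene had a second probe, its values bear on these differences. Illumina's probe names mark probes for all isoforms or for 1 isoform. Both S100A4 probes were above background in all lines and gave the same order. The brighter one, whose values are given above, is marked for 1 isoform. The other, marked for all isoforms, read 40.2, 51.3 and 29.4. BG03 stood over ES01 by 0.80 in log2 there and by 0.61 at the brighter probe. The isoform probe of ANXA11 was barely above background (11.3, 14.7 and 14.0), with ES01 over H9 by 0.30 in log2 against -0.12 at the brighter probe, and that of ANXA7 was below it in every line. Near-identical copies limit other members: the reference table lists 3 pseudogenes of ANXA2 and 10 of S100A11. The probe sequences were not used here, so signal from such copies cannot be told apart from that of the gene.

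Along chromosome 1 the detected S100 genes lay at both ends of the cluster. From S100A10 to S100A1 the table lists 63 protein-coding genes, of which 50 were measured, 15 of them S100 members. Of the 15, 7 were above background in all lines and 8 in none. S100A10 and S100A11 stand at one end, followed by the epidermal genes. S100A9, S100A12, S100A8 and S100A7 follow these, none of them detected. At the other end come S100A6 (detected), S100A5 (not), S100A4 (detected), S100A3 and S100A2 (not), S100A16, S100A14 and S100A13 (detected) and S100A1 (not).

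Between the S100 genes lie 35 other measured genes, 28 of them above background in no line. SMCP, a sperm mitochondrial protein gene (45.6, 48.9 and 31.8), and LCE3A, a cornified envelope gene (15.9, 18.9 and 14.1), were above it in all lines, and 5 others in 1 or 2. Of the epidermal list, 32 of 40 genes were measured. Loricrin, filaggrin and hornerin genes were undetected, and involucrin (IVL) was at 13.6, 18.3 and 8.77.

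**Figure D5:**
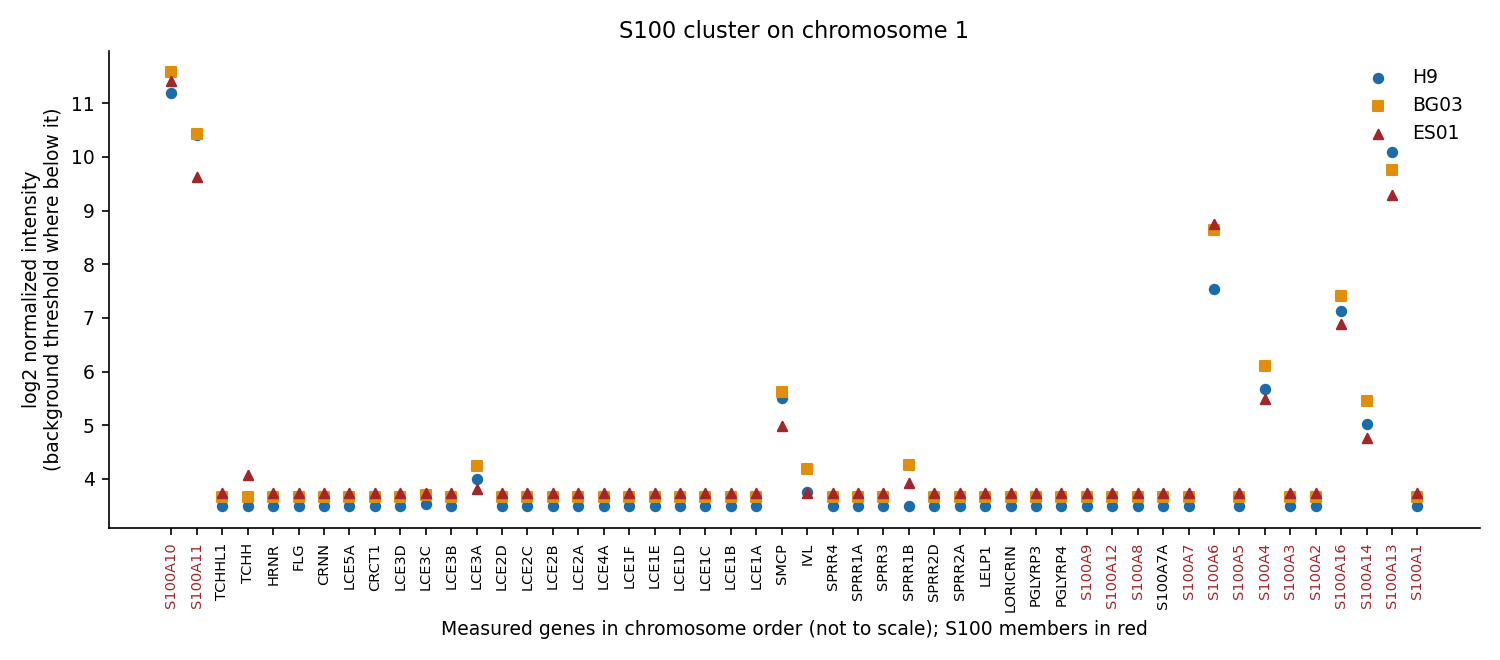
log2 normalized intensity in H9, BG03 and ES01 of the 50 measured genes from S100A10 to S100A1 in their order on chromosome 1, not to scale, with S100 members named in red. Values under background stand at the array's threshold. The S100 genes above it are at both ends, and the genes in the middle lie at or near the threshold except SMCP.

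Known partners and receptors of the families were taken as a list of 35 genes, of which 32 were measured. In all 3 lines 18 exceeded background, 4 did in 1 or 2 lines and 10 in none, and 2 of the 22 detected differed at least 2-fold. PLA2G4A, the cytosolic phospholipase A2 that ANXA1 inhibits, was under background in H9 (10.4), just over it in BG03 (13.3) and at 29.8 in ES01, at least 2.66-fold higher in ES01 than in H9. LGALS3, a galectin, measured 24.0, 17.6 and 38.1. The formyl peptide receptors FPR2 and FPR3 were not detected, and FPR1 was at 16.8, 15.9 and 9.07. AGER, the receptor of secreted S100 proteins, was dim (31.4, 36.8 and 25.2), and TLR4, which binds S100A8 and S100A9, was not detected.

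Of the other partners, some differed by more than 1.5-fold and some by less. RYR1, a calcium channel that S100A1 binds, was under background in H9 (6.57) and at 12.7 in BG03 and 22.3 in ES01, DYSF, a membrane repair protein, measured 25.7, 36.6 and 22.8, and PPFIBP1, a liprin that binds S100A4, 29.1, 18.3 and 17.8. The S100A4 target MYH9, a non-muscle myosin, measured 2032, 2359 and 2044 (log2 SD 0.12), and the actin linker EZR 2663, 3699 and 3339 (log2 SD 0.24). The penta-EF-hand proteins PDCD6 (1282, 1251 and 1168) and SRI (3493, 3270 and 3241), which bind ANXA11 and ANXA7, had log2 SDs of 0.07 and 0.06. CACYBP, named for binding S100A6, measured 24.3, 35.6 and 34.3. AHNAK, the large scaffold bound by ANXA2 with S100A10, was not above background.

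Calcium-binding genes outside the families gave a point of comparison. A list of 48 had 43 measured genes, with 33 detected in every line, 3 in 1 or 2 lines and 7 in none. Of the 36 detected, 4 differed at least 2-fold: CALML4 (95.7, 82.1 and 40.8), RCN3 (36.7, 13.2 and 27.4), CETN3 (72.2, 33.2 and 68.0) and VSNL1 (305, 229.9 and 549.6). Over the 36, the median log2 difference was -0.06 between ES01 and H9 and -0.03 between ES01 and BG03. These were closer to 0 than the medians of the annexins or of the S100 genes. The family medians rest on only 8 genes each, and the families were proposed with the intensities in view, so nothing is read from this.

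Markers of other cell types were set beside the members they are known to accompany. Fibroblast genes were included because the lines grew on mouse fibroblasts and because ANXA1, S100A6 and S100A4 are known from fibroblasts. ANXA1 and S100A6 were highest in ES01, whereas S100A4 was lowest there (50.8, 68.9 and 45.1 in H9, BG03 and ES01). Of 18 fibroblast markers, 11 were detected in every line and 4 in 1 or 2 lines, while COL3A1, POSTN and DDR2 were not detected. Their summed intensity over the 15 detected was 9942 in H9, 10035 in BG03 and 13346 in ES01. CCN2 carried most of the difference between ES01 and H9, but not most of that between ES01 and BG03. Without it, a choice made after the values were seen, the sums were 7094 in H9, 5425 in BG03 and 7495 in ES01. They were then near each other in H9 and ES01, with BG03 lower. ES01 was the highest line for 8 of the 15, H9 for 5 and BG03 for 2. Of the 15, 8 differed at least 2-fold. Among those highest in ES01, as ANXA1 was, were TWIST1 (9.67, 24.5 and 45.4), COL1A1 (18.6, 22.0 and 43.2), COL1A2 (310, 229 and 582), ACTA2 (108, 85.4 and 221) and CCN2 (2848, 4611 and 5851). VIM (2346, 1476 and 2104), FN1 (1332.5, 959 and 1044) and COL6A1 (711, 465 and 465) were highest in H9, where ANXA1 was lowest. LUM was above background in BG03 alone (48.9), DCN in H9 and ES01, and LGALS1 was lowest in BG03 (799, 349 and 917). The part of fibroblasts, human or mouse, in the ANXA1 and S100A6 values was not tested, and in RNA of whole cultures more such cells and more RNA per cell cannot be told apart.

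Myeloid markers went with the undetected S100A8, S100A9 and S100A12: 0 of 10 were above background in all lines, and PTPRC, CD14, LYZ and ITGAM were in none. Of the myeloid list only ITGB2 (in BG03) and MPO (in BG03 and ES01) passed the threshold, with at most 17.8 units. Of 7 measured keratinocyte markers, KRT10 alone was above background in all lines (460, 616 and 513), and KRT5 in none. Simple epithelial keratins were detected, with KRT8 at 1533, 1753 and 1770, KRT18 at 2437, 3116 and 3070 and KRT19 at 2675, 2878 and 2114. Of 10 markers of simple epithelium and trophoblast, 5 were above background in all lines and HAND1 alone differed at least 2-fold (17.7, 34.7 and 15.7). Of 6 neural markers, DCX and NES were above it in all lines, PAX6 and OLIG2 in some, and SOX1 and GFAP in none. DCX (34.4, 76.3 and 55.4), PAX6 (3.8, 14.8 and 24.2) and OLIG2 (38.8, 52.8 and -5.43) differed at least 2-fold.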

How the data were processed

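Intensities came from the value table deposited by the authors, 1 column per line and 47293 probes. The deposited intensities are linear and background-subtracted, since 26.3% to 33.8% of an array's values are below 0; the authors' software and scaling are not stated in these sources. Quantile normalization (limma 3.58.1, R 4.3.3) covered all probes but 4 bacterial controls. The platform annotation, which can be old, gave 18468 probes 1 symbol, 0 several and left 28825 unnamed; symbols of 18451 were updated by gene ID from a table of assembly GRCh38.p14. A gene with several probes is read by the one with the highest mean. Intensities of single beads, as deposited, could not be tied to genes and gave bead error only, after beads beyond 3 median absolute deviations were dropped. Members and lists were chosen with earlier results of these data known, so no test is given. All members are named; of other lists, genes differing at least 2-fold and up to 4 more in list order, plus further ones chosen after their values were seen. Normalization was tested on simulated data. Promoters are from RefSeq. Python 3.11.15, numpy 2.4.6, pandas 2.3.3 and matplotlib 3.10.9 were used.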

Additional observations from a re-analysis of the deposited data

How the results depend on the processing

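Alternatives covered the normalization, background, probe rule, floor, filter, fold size and leaving out each line. The counts of detected members stayed at 8 and 8, except for 7 annexin and 7 S100 genes with the 99th percentile background, which ANXA9 and S100Z do not pass. A fold size of 1.5 gave 6 members between H9 and ES01, 6 between BG03 and ES01 and 9 over the 3 lines. A fold size of 3 gave 0 between H9 and BG03 and 1 in each other comparison. Shares of all named genes at these fold sizes and at the 99th percentile are not given here. The member counts at those settings thus have no reference, and nothing is read from them. Without replicate 1, 2 or 3, 2 to 3 members had a range of at least 2-fold. No called difference reversed in any alternative. A floor of 50 units brought the S100 medians of all 3 pairs and the annexin median between BG03 and H9 closer to 0 by over 1.5 times, to -0.01 for S100 genes between ES01 and H9; no other alternative moved a family median that far, and none changed its sign. No paired analysis was possible because the 3 lines form 1 group. Dim members, ANXA9, S100A14 and S100Z, rest on signals near background, and 1 array per line limits every difference.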

Other observations

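Neighbours of the symbol rule were left out of the families. S100PBP, a nuclear binding protein of S100P, measured 583 in H9, 442 in BG03 and 535 in ES01, although S100P itself was not above background. ANXA2R, a membrane receptor of ANXA2, was above background in ES01 alone, at 17.5 units. S100A7A, the near copy of S100A7, was below 0 in every line, at -7.6, -6.57 and -10.5 units.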
